A study of Mus musculus with 8 samples.

Results

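The Bcl2 family decides whether a cell under stress keeps its mitochondria intact. Survival members (Bcl2, Bcl2l1, Mcl1 and Bcl2a1d, whose proteins are known as Bcl-2, Bcl-xL, Mcl-1 and A1) hold back the effector members Bax and Bak1, which otherwise form pores in the outer mitochondrial membrane and release cytochrome c. The BH3-only members (Bcl2l11 or Bim, Bid, Bbc3 or Puma, and Bad) sense stress and either occupy the survival proteins or engage the effectors. In blood-forming cells, signalling from the receptor Kit through Akt and Erk is known to restrain Bim, Bad and Puma, and the study asked how survival fares when Kit ligand (Kitl) is lost. The members were taken by symbol as known pro- and anti-apoptotic genes of the family, and they are 10 of the 24015 genes in the count table. All 10 were among the 13908 genes kept by the filter on low counts.

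RNA was measured by SMARTSEQ2 in 8 libraries, each from 100 sorted cells of the E11.5 aorta-gonad-mesonephros region with its vitelline and umbilical arteries. Hematopoietic clusters were Ter119- VE-Cadherin+ Kit+ cells and endothelium was Ter119- VE-Cadherin+ Kit- CD41- CD45- cells. Each was collected from wild type (WT) and Sl/Sl embryos, the latter homozygous for a deletion that takes in the Steel locus encoding Kitl, with 2 libraries in each of the 4 groups and embryos pooled by genotype. Steel mice were kept on the C57BL/6 background, all cells of these embryos lack Kitl, and cells that took up a viability dye were gated out at the sort, so the libraries describe cells still alive at collection. With 2 libraries a group, p-values measure the spread between these libraries, and an exact permutation test of 2 against 2 cannot go below 0.333.

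Libraries held between 8933236 and 13428214 counts and detected between 12844 and 14309 genes. Kitl, the gene removed in Sl/Sl, had 1250 and 923 counts in WT endothelium and 6 and 2 in Sl/Sl endothelium. In clusters it had 110 and 0 counts in the WT and 1 and 3 in Sl/Sl, so this gene did not set WT clusters replicate 2 apart from Sl/Sl. The sort was visible in Ptprc, which encodes CD45, at 106 to 304 counts in every 1000000 (CPM) in clusters and 0.606 to 1.27 CPM in endothelium. Cdh5, which encodes VE-Cadherin, was at 452 to 655 CPM in endothelium, yet cluster libraries spanned 12.0 CPM in WT replicate 2 to 218 CPM in WT replicate 1. The 10 hematopoietic markers summed to 1219 to 1790 CPM in clusters and 257 to 312 CPM in endothelium, and 8 mesenchymal markers ran from 26.4 to 3456 CPM without following the groups. In bulk samples of this kind, fewer cells of a type and less RNA per cell cannot be told apart.

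What most members share in sequence is the BH3 domain, a short helix through which they bind each other. It is shown here because the members are grouped by how they use it. A search of the GENCODE coding sequences on the mm9 (NCBIM37) genome for a leucine codon, 3 codons of any kind, then glycine and aspartate codons found 1 match in each of 7 members, and 12.8% of 21370 coding sequences held such a match. Each line gives 42 bases of the coding strand, 5′ to 3′, with the 6 matching codons in capitals.
Bcl2 (chr1:108609149-108609190, minus strand): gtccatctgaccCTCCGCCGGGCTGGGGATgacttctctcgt
Bcl2l1 (chr2:152655430-152655471, minus strand): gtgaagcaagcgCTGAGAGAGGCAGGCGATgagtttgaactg
Mcl1 (chr3:95463347-95463388, plus strand): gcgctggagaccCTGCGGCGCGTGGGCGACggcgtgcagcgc
Bax (chr7:52721364-52721405, minus strand): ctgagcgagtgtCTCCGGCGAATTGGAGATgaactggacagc
Bak1 (chr17:27159473-27159514, minus strand): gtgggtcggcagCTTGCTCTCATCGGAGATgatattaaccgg
Bcl2l11 (chr2:127972874-127972915, plus strand): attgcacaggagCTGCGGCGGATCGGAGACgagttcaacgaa
Bid (chr6:120847304-120847345, minus strand): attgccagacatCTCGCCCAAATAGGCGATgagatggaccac
Bbc3 and Bad matched only when the glycine codon could also be alanine or serine, a looser pattern that 33.1% of coding sequences held.
Bbc3 (chr7:16899110-16899151, plus strand): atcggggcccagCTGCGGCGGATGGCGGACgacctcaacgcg
Bad (chr19:7025270-7025311, plus strand): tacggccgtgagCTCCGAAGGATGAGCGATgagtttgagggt
Bcl2a1d matched neither pattern. A match is a description of these letters and does not bear on binding.

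Bcl2a1d belongs to a cluster of near-identical copies on chromosome 9, which bears on how its counts can be read. Its coding sequence of 519 bases differs from Bcl2a1a at 7 positions and from Bcl2a1b at 6. The first 90 coding bases hold 6 of the 12 positions at which any of the 3 copies differ, shown in capitals.
Bcl2a1d (chr9:88626468-88626557, minus strand): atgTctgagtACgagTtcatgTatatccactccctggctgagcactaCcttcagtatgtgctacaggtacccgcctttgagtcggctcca
Bcl2a1a (chr9:88851889-88851978, plus strand): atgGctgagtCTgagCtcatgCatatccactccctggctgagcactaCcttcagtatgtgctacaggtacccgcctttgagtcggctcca
Bcl2a1b (chr9:89094198-89094287, plus strand): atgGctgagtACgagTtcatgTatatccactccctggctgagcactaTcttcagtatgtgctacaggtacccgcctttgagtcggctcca
Of the 75-base windows along the exons of Bcl2a1d, 72.7% were found again elsewhere in the genome, against 0% for each of the other 9 members. How reads with several matches were counted is not given in the sources used here, so the split of counts among the copies is uncertain. Exons of Bad overlap those of Gpr137 on the opposite strand over 517 bases of the 1521 in the Bad model, and the strand setting is likewise not given. Gpr137 had between 18 and 148 counts in the 8 libraries while Bad had between 286 and 911.

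Levels between genes were compared in reads per kilobase of exon and per 1000000 counts (RPKM). Bax stood first in all 4 groups, with 193 ± 9.13 RPKM in WT clusters, 225 ± 37.5 in Sl/Sl clusters, 165 ± 35.1 in WT endothelium and 141 ± 37.7 in Sl/Sl endothelium (SD, n = 2). Its lowest library was above the highest library of the next gene in each group, and it lay between the 92.1 and 95.8 percentile of tested genes in all libraries. Bak1, the other effector, was at 1.06 to 5.48 RPKM, and Bax exceeded it between 34.0 and 178 times within a library. Bok, a related pore-forming protein outside the 10 members that was picked here after its values were seen, was at 2.60 to 15.9 RPKM in clusters and 11 to 46.3 RPKM in endothelium. It was above Bak1 in every library except WT clusters replicate 1 and below Bax in all 8 libraries.

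Mcl1 led the survival members. It made up between 67.7% and 90.5% of the summed RPKM of the 4 survival genes in each library, at 55.2 ± 18.9 RPKM in WT clusters, 29.6 ± 4.48 in Sl/Sl clusters, 41.4 ± 5.76 in WT endothelium and 51.2 ± 7.52 in Sl/Sl endothelium. Bcl2l1 (1.81 to 6.52 RPKM) and Bcl2 (0.793 to 6.57 RPKM) were far lower, and their library ranges overlapped in WT clusters and in WT endothelium. In Sl/Sl clusters Bcl2l1 was above Bcl2 in every library, and in Sl/Sl endothelium Bcl2 was above Bcl2l1 in every library. Bcl2a1d reached 10.1 RPKM in clusters and had 0 counts in all 4 endothelium libraries.

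Among the BH3-only members the leading gene changed with the cell type. In clusters Bid came first, at 74.7 ± 46.0 RPKM in the WT and 58.9 ± 7.09 in Sl/Sl, and made up 56.3% to 73.4% of the BH3-only sum in each library. In endothelium Bad came first, at 47.8 ± 9.64 RPKM in the WT and 44.1 ± 11.7 in Sl/Sl, and made up 61.3% to 79.5% of that sum. Bcl2l11 was at 1.39 to 12.8 RPKM, and Bbc3 was the lowest member of this class in every library, at 0 to 2.17 RPKM. The neighbours Bid and Mcl1 overlapped in WT clusters, Bad and Mcl1 overlapped in both endothelium groups, and Bid and Bcl2l11 overlapped in both endothelium groups, so their order there was not set beyond the spread.

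**Figure D1:**
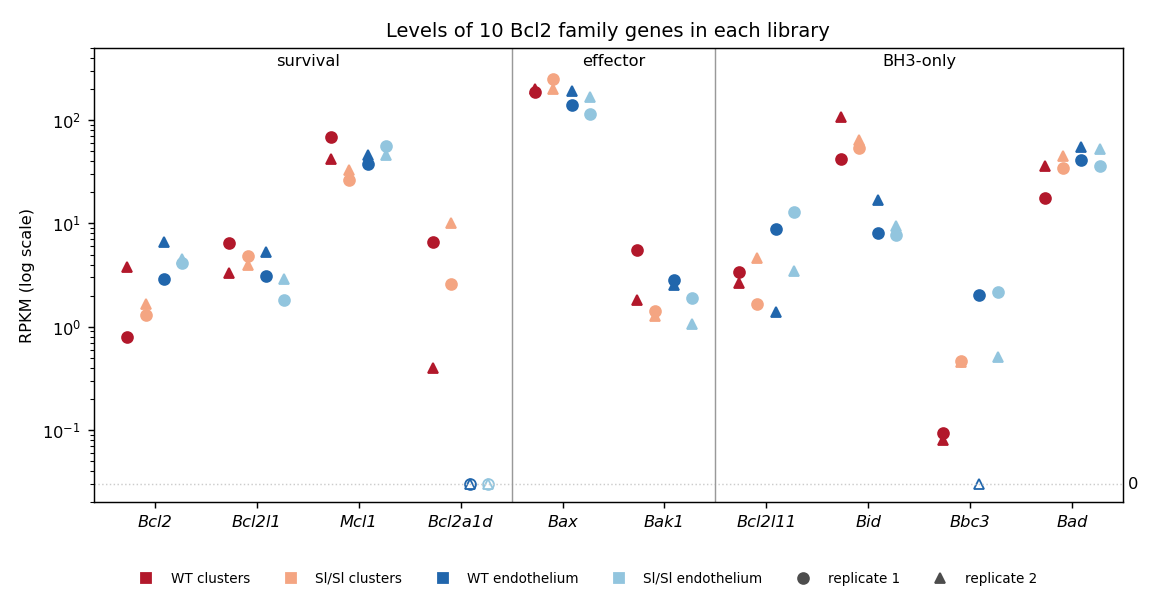
RPKM on a log scale for the 10 genes, grouped by role, with 1 point per library, colour for the group and shape for the replicate. Open symbols on the dotted line mark libraries with 0 counts. Bax lies between 115 and 252 RPKM in all libraries, Bid is higher in clusters than in endothelium, and Bcl2a1d is on the 0 line in endothelium.

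The first comparison asked how the survival and death genes differed between endothelium and the clusters that arise from it. With both genotypes averaged, 2 of the 10 members passed an adjusted p of 0.1 in the quasi-likelihood test of edgeR, adjusted by Benjamini-Hochberg, Bid and Bcl2a1d, both lower in endothelium. In this comparison 16.6% of all genes tested were called, so the members' share is near that of genes at large. Bcl2a1d was kept by the filter on low counts through its cluster libraries alone. Of the 10 members, 5 had positive and 5 negative log2 fold changes, with a median of 0.15 beside −0.07 over all genes, and the median was the same with Bcl2a1d set to its bound.

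Bid, which links death receptors to mitochondria once caspase-8 has cut its protein, was the clearest difference. Its level was 73.8 and 198 CPM in WT clusters and 100 and 113 CPM in Sl/Sl clusters, against 15.6 and 34.0 CPM in WT endothelium and 15.1 and 19.2 CPM in Sl/Sl endothelium. Every cluster library was above every endothelium library, and WT clusters replicate 2 was the highest of all. The log2 fold change, endothelium over clusters, was −2.55 with a standard error of 0.40 (5.85-fold lower, adjusted p = 0.00497 in edgeR's quasi-likelihood test).

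The difference in Bid held within each genotype. In the WT alone it was −2.46 ± 0.57 (SE) on the log2 scale, with an adjusted p of 0.0443 in the same edgeR test, and Bid was the 1 member of 10 called where 8.24% of all genes were. In Sl/Sl alone it was −2.64 ± 0.57 with an edgeR adjusted p of 0.0636, again 1 member of 10, where 2.83% of all genes were called. Each within-genotype call was lost when any of several libraries was left out, which leaves 1 library in that group. The WT edgeR adjusted p was 0.235 without clusters replicate 2, where the log2 value was −1.61, and 0.164 without endothelium replicate 1. The Sl/Sl edgeR adjusted p was 0.152 without clusters replicate 2, and 0.209 and 0.113 without endothelium replicates 1 and 2. The call with both genotypes averaged was kept whichever library was left out.

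Bcl2a1d, a survival member known from leukocytes, was detected in clusters only. It had 57 and 4 counts in WT clusters and 25 and 108 in Sl/Sl clusters, and 0 in each of the 4 endothelium libraries. The cluster libraries were all above 0 but ranged from 4 to 108 counts, and the spread within each genotype was larger than the difference between the genotype means. Against the floor of 3 counts a library that a count of 0 allows, Bcl2a1d was at least 12.8-fold lower in endothelium (at least 9.65-fold in the WT and at least 15.5-fold in Sl/Sl), with an edgeR adjusted p of 0.0735. The gene passed the filter through its cluster libraries alone, and the call was lost when any library other than WT clusters replicate 2 was left out.

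Its copies were also counted mainly in clusters. Bcl2a1a had 100 and 1 counts in WT clusters, 6 and 0 in Sl/Sl clusters and 0 in endothelium. Bcl2a1b had 178 and 193 counts in WT clusters, 24 and 269 in Sl/Sl clusters, and a single endothelium library with 3. Summed over the 3 copies, a step chosen after seeing the data that removes the split among them, the counts were 335 and 198 in WT clusters, 55 and 377 in Sl/Sl clusters, and 3, 0, 0 and 0 in endothelium, and the edgeR adjusted p of the cell type difference was 0.00949. The sum was high in 3 cluster libraries and lower in Sl/Sl clusters replicate 1.

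Markers of myeloid cells were higher in clusters than in endothelium, as were Bid and the Bcl2a1 copies. The summed level of 10 macrophage markers was 704 to 1246 CPM in clusters, with C1qa at 0 in 1 of the 4 libraries, and 8.66 to 37.0 CPM in endothelium, where Cx3cr1, C1qa and C1qc were at 0 in 3 of the 4. The 4 neutrophil granule genes summed to 269 to 940 CPM in clusters and 7.03 to 33.0 CPM in endothelium. Sl/Sl clusters replicate 1 had the highest sum of both lists and the lowest count of the 3 copies among clusters. The part of these cells in the differences was not tested.

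Bcl2, the founding survival member, was higher in endothelium by point estimate. It was at 5.69 and 28.4 CPM in WT clusters and 9.85 and 12.0 CPM in Sl/Sl clusters, against 22.7 and 53.9 CPM in WT endothelium and 33.1 and 37.2 CPM in Sl/Sl endothelium. WT clusters replicate 2 stood above the other cluster libraries and above 1 endothelium library, so the cell types overlapped. The log2 fold change was 1.42 ± 0.60 (SE; 95% interval 0.08 to 2.77) with an edgeR adjusted p of 0.166, which missed the threshold. Without WT clusters replicate 2 it was 2.18 with an edgeR adjusted p of 0.0691, and DESeq2 on the 8 libraries gave 1.4 with an adjusted p of 0.0948.

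That library also stood apart in its endothelial markers. The summed level of 10 endothelial markers was 429 CPM in WT clusters replicate 2, 763 CPM in Sl/Sl clusters replicate 2, and 1202 and 2800 CPM in replicate 1 of the WT and Sl/Sl clusters, against 5948 to 6747 CPM in endothelium, with no marker at 0 in any library. The library with the least endothelial RNA thus had the most Bcl2 among clusters. Whether endothelial content bears on Bcl2 in these libraries was not tested.

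The remaining members gave no call between cell types. Bcl2l1, the survival member on which erythroid cells depend, was 10.3 to 19.3 CPM in clusters and 6.04 to 18 CPM in endothelium (log2 fold change −0.42, 95% interval −1.87 to 1.04). Bax was 150 to 215 CPM in clusters and 104 to 175 CPM in endothelium (−0.32, −0.84 to 0.20), and the cell types did not overlap in Sl/Sl but did in the WT. Bak1 was 2.37 to 10.2 CPM and 2.26 to 5.72 CPM (−0.02, −2.41 to 2.36).

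Bad, which is silenced when Akt phosphorylates its protein, was 24.6 to 63.6 CPM in clusters and 56.8 to 88.1 CPM in endothelium (0.62, −0.14 to 1.39), and in the WT both endothelium libraries were above both cluster libraries. Bcl2l11 was 11.7 to 31.1 CPM in clusters and 10.5 to 95.4 CPM in endothelium (1.19, −0.30 to 2.67). Its endothelium libraries disagreed: replicate 1 had 804 counts in the WT and 1090 in Sl/Sl, while replicate 2 had 104 and 219. The spread within each endothelium group was thus larger than the difference between cell types.

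Bbc3, a direct target of p53, was at the edge of detection. It had 2 and 2 counts in WT clusters, 11 and 12 in Sl/Sl clusters, 52 and 0 in WT endothelium and 51 and 9 in Sl/Sl endothelium. WT endothelium over WT clusters gave a ratio of 14.1 from 52 against 4 counts, with a 95% interval of 5.2 to 53.8 that covers counting error only. Since all 52 came from 1 library, the replicates of WT endothelium did not agree on whether the gene was detected, and the edgeR adjusted p across all genes was 0.518.

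**Figure D2:**
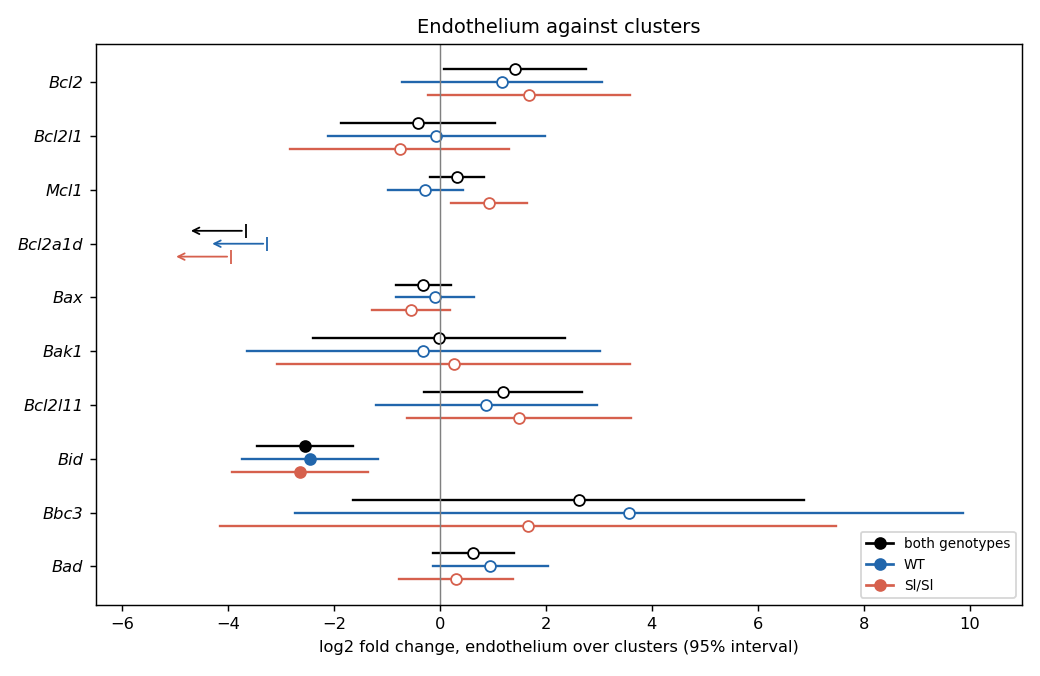
Log2 fold change of endothelium over clusters (x axis) for the 10 genes, with 95% intervals, for both genotypes averaged, for WT and for Sl/Sl. Filled points passed an adjusted p of 0.1 and open points did not, and for Bcl2a1d the tick and arrow give the bound against the floor of 3 counts. Bid is filled in all 3 fits, between −2.46 and −2.64, and the intervals of Bcl2l1, Bax, Bak1, Bcl2l11, Bbc3 and Bad include 0 throughout.

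The second comparison asked whether cluster cells or endothelium that developed without Kitl carried another balance of survival and death RNA. No member passed the threshold in Sl/Sl against WT clusters (0 of 10, where 0% of all genes were called by edgeR's quasi-likelihood test) or in Sl/Sl against WT endothelium (0 of 10, again 0% of all genes). At an unadjusted p under 0.05, edgeR had 587 genes (4.22%) in clusters, 1 of them a member, and 580 genes (4.17%) in endothelium, none of them a member. DESeq2 on the 8 libraries called 155 and 119 genes in these comparisons and none of the 10 members. The study, which named DESeq2 for its tests, reported genes differing by genotype in both cell types at a false discovery rate under 0.1. It found more of them in clusters, where it described endothelial-associated genes as higher and hematopoietic genes as lower in Sl/Sl. The lack of any call across genes is thus a result of the edgeR fit used here. In clusters 5 members had positive and 5 negative values, with a median log2 fold change of −0.03 beside 0.03 over all genes. In endothelium, leaving out Bcl2a1d, 3 of 9 were positive and 6 negative, with a median of −0.13 beside 0.00 over all genes.

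Mcl1 was the member at an unadjusted p under 0.05. Its level was 221 and 142 CPM in WT clusters and 90.8 and 107 CPM in Sl/Sl clusters, and 133 and 168 CPM in WT endothelium and 205 and 170 CPM in Sl/Sl endothelium. Both Sl/Sl libraries were below both WT libraries in clusters and above both in endothelium, where the nearest 2 libraries differed by little. The log2 fold change of Sl/Sl over WT was −0.88 ± 0.32 (SE; 95% interval −1.59 to −0.16) in clusters and 0.32 ± 0.32 (−0.39 to 1.03) in endothelium, each with an edgeR adjusted p of 1.

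The difference between the 2 changes was tested as an interaction of genotype and cell type. For Mcl1 it was −1.20 ± 0.45 on the log2 scale, with an edgeR adjusted p of 0.902. None of the 10 members passed in this test (0 of 10, where 0% of all genes were called), with 1 member and 736 genes (5.29%) at an unadjusted p under 0.05, and DESeq2 on the 8 libraries called 121 genes, none of them a member. Within Sl/Sl alone, Mcl1 was higher in endothelium than in clusters by 0.92 ± 0.32 (adjusted p = 0.226 in the edgeR test), and within the WT the value was −0.27 ± 0.32 (adjusted p = 0.691).

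Mcl1 RNA is short-lived and is induced within minutes by growth factors and stress, and a list of early response genes known to rise with tissue handling moved with it. Their summed level over 9 genes (Fos, Fosb, Jun, Junb, Egr1, Ier2, Atf3, Hspa1a and Hspa1b) was 499 and 570 CPM in WT clusters and 260 and 354 CPM in Sl/Sl clusters. In endothelium it was 428 and 493 CPM in the WT and 768 and 570 CPM in Sl/Sl. The list was thus lower in both Sl/Sl cluster libraries and higher in both Sl/Sl endothelium libraries, as was Mcl1, with 1 gene at 0 in 1 library. Its part in the Mcl1 values was not tested.

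**Figure D3:**
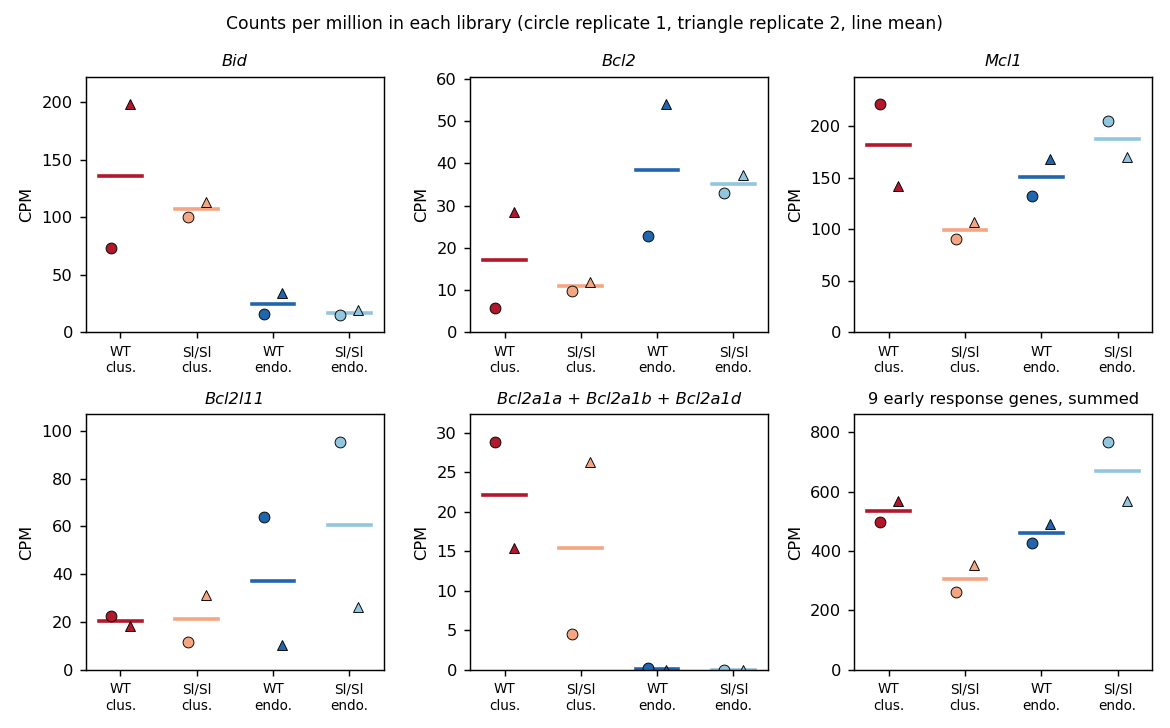
CPM in each library (y axis, starting at 0) for Bid, Bcl2, Mcl1, Bcl2l11, the 3 Bcl2a1 copies summed, and the 9 early response genes summed, with circles for replicate 1, triangles for replicate 2 and a line at the mean of 2 libraries. Bid and the Bcl2a1 sum are higher in clusters, the 2 genotypes separate in opposite directions for Mcl1 and for the early response genes, and Bcl2l11 splits by replicate in endothelium.

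Bcl2 and Bax, which the study listed among genes downstream of Kit, did not separate by genotype in these libraries. By quantitative PCR on sorted precursors of hematopoietic stem cells (pre-HSCs), the study reported lower Bcl2 in Sl/Sl pre-HSC type II/HSCs. It reported higher Bax in Sl/Sl pre-HSC type I, with an upward trend in pre-HSC type II/HSCs, and more apoptotic cells among pre-HSC type II/HSCs. These pre-HSCs were sorted with narrower gates than the clusters here, so the values are not of the same cells. By staining at an earlier stage, the study also counted more apoptotic cells among Kit+ cells of the Sl/Sl dorsal aorta. Bcl2l1 was in its panel too and was reported higher in Sl/Sl fetal liver populations, which were not sampled here. In clusters the Bcl2 log2 fold change of Sl/Sl over WT was −0.64 (95% interval −2.51 to 1.23), and both Sl/Sl libraries fell between the 2 WT libraries. It changed sign with 1 library, to 0.93 without WT clusters replicate 2. For Bax it was 0.24 (−0.49 to 0.98) in clusters and −0.20 (−0.94 to 0.53) in endothelium, so a change of 2-fold in either direction lies outside both intervals. Bcl2 in endothelium was −0.13 (−1.98 to 1.73).

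The intervals of the other members were wide, and these data do not show that they were unaffected. Bcl2l1 was −0.13 (95% interval −2.18 to 1.92) in clusters and −0.82 (−2.89 to 1.25) in endothelium, where both Sl/Sl libraries, at 6.04 and 9.89 CPM, were below both WT libraries, at 10.2 and 18 CPM. Bak1 was lower by point estimate in Sl/Sl in both cell types, by 1.41 (−4.80 to 1.98) in clusters and 0.83 (−4.18 to 2.52) in endothelium. Its libraries did not overlap between genotypes in either cell type, on 19 to 118 counts a library. For any gene, a lack of overlap of 2 against 2 libraries corresponds to p = 0.333 in an exact permutation test. Bid was −0.35 (−1.56 to 0.86) and −0.53 (−1.76 to 0.69), and Bad was 0.56 (−0.52 to 1.64) and −0.10 (−1.18 to 0.98).

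Bcl2l11, which Kit signalling is known to hold down, was 0.08 (95% interval −2.0 to 2.16) in clusters and 0.71 (−1.37 to 2.79) in endothelium. The standard errors were nearly the same (0.92 each), since 1 fit shared the spread across the 4 groups. Bcl2a1d was 0.88 ± 2.43 (SE) in clusters and turned to −0.52 when the 3 copies were summed, and it was not detected in endothelium. Bbc3 had 23 counts over both Sl/Sl cluster libraries and 4 over both WT ones, a ratio of 5.31 with a 95% interval of 1.81 to 21.1 from counting error alone, and both Sl/Sl libraries were above both WT libraries. In the test across all genes its log2 fold change was 2.33 with an interval of −3.67 to 8.34 and an edgeR adjusted p of 1.

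**Figure D4:**
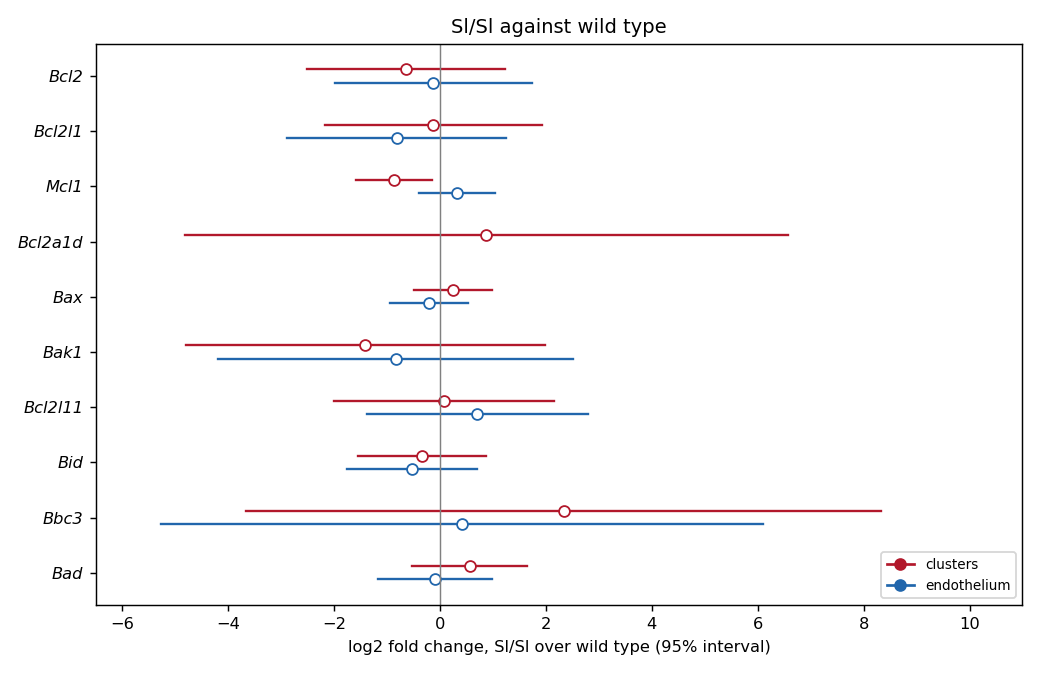
Log2 fold change of Sl/Sl over WT (x axis) for the 10 genes, with 95% intervals, in clusters and in endothelium, with open points since none passed an adjusted p of 0.1. Bcl2a1d has no endothelium value because all 4 libraries were at 0. The interval for Mcl1 in clusters, −1.59 to −0.16, is the only one that leaves out 0.

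Sums over the roles describe the balance within a library, and they carry no test. Effector here means Bax and Bak1, without Bok. The 4 survival genes summed to 82.5 and 49.2 RPKM in WT clusters, 35.2 and 48.5 in Sl/Sl clusters, 43.3 and 57.4 in WT endothelium and 62.4 and 53.3 in Sl/Sl endothelium. The Sl/Sl clusters lay below the WT clusters, though the nearest pair (48.5 and 49.2) was almost equal, and the Mcl1 values above set most of these sums. Survival over effector RNA was 0.431 and 0.245 in WT clusters, 0.139 and 0.242 in Sl/Sl clusters, 0.304 and 0.299 in WT endothelium and 0.535 and 0.315 in Sl/Sl endothelium.

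As a description without a test, Bax over Bcl2 differed by cell type rather than by genotype in these libraries. Neither gene alone was called between the cell types by edgeR. The ratio of RPKM was 235 and 53 in WT clusters and 195 and 120 in Sl/Sl clusters, and 48.5 and 28.8 in WT endothelium and 28.0 and 37.2 in Sl/Sl endothelium. Every cluster library was above every endothelium library, though WT clusters replicate 2, at 53, was close to WT endothelium replicate 1, at 48.5. The Sl/Sl clusters fell between the 2 WT cluster libraries.

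**Figure D5:**
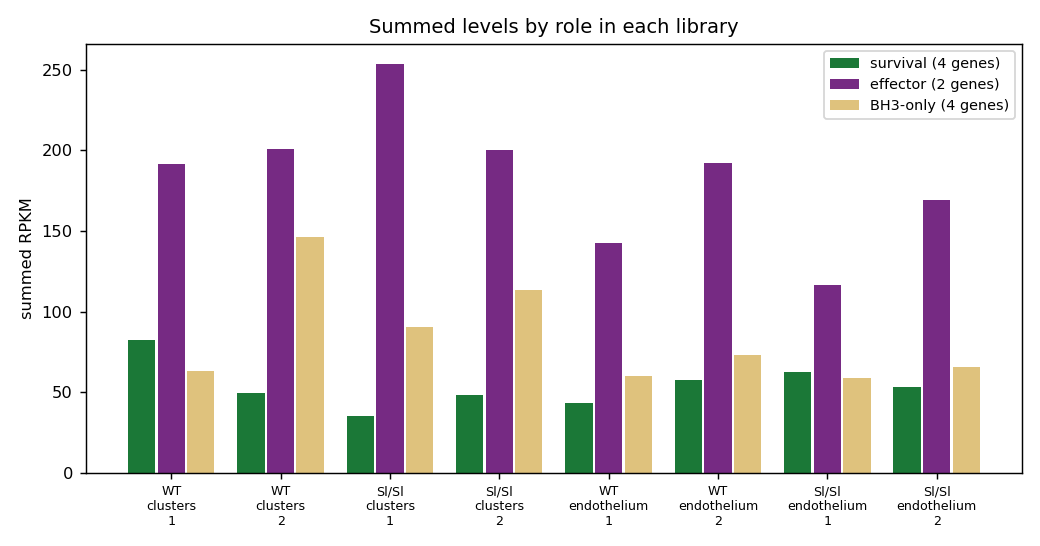
Summed RPKM (y axis, starting at 0) of the survival, effector and BH3-only genes in each of the 8 libraries, with 1 bar per role. Effector bars, 117 to 253 RPKM, are the highest in every library. BH3-only bars, 58.5 to 146 RPKM, are above survival bars in all libraries but 2, WT clusters replicate 1 and Sl/Sl endothelium replicate 1.

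The other genes of the pathway were followed by 4 lists. In endothelium against clusters with both genotypes averaged, 16.6% of all genes were called, to be set beside the count of each list. Of the other Bcl2 family genes, 17 were listed and 11 tested, and in endothelium against clusters with both genotypes averaged 1 rose and 2 fell by edgeR, with a median log2 fold change of −0.18 beside −0.07 over all genes. Bik, a BH3-only gene, had 1, 2, 21 and 2 counts in clusters and 156, 248, 107 and 198 in endothelium, a log2 fold change of 5.64 (adjusted p = 0.0154). The genes that fell were the copy Bcl2a1b, described above, and Bcl2l14, with 154, 159, 52 and 64 counts in clusters and 1, 0, 0 and 0 in endothelium (adjusted p = 0.0185). Bik was near the floor in clusters apart from the 21 counts of Sl/Sl clusters replicate 1, and Bcl2l14 was at or near 0 throughout endothelium. Bik was kept by the filter on low counts through its endothelium libraries, and Bcl2l14 and Bcl2a1b through their cluster libraries. Their adjusted p-values thus rest on genes selected in the group where they are high.

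Of 18 genes of the caspase cascade and its inhibitors, 1 rose and 1 fell in the same comparison (16.6% of all genes called), with a median of −0.31. Casp6, an executioner caspase and the one that rose, was 98.8 to 189 CPM in clusters and 188 to 263 CPM in endothelium (log2 fold change 0.64, edgeR adjusted p = 0.0873). The ranges of Casp6 overlapped slightly between the cell types.

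Of 12 death receptor genes tested out of 13, 1 rose and 1 fell (16.6% of all genes called), with a median of −0.43. Fas, a death receptor whose signal reaches mitochondria through Bid, was 28.4 to 56.5 CPM in clusters and 71.7 to 125 CPM in endothelium (log2 fold change 1.05, edgeR adjusted p = 0.0385), the opposite direction to Bid in the same libraries. Tnf, a death receptor ligand, was 0.821 to 59.6 CPM in clusters and 0 to 2.12 CPM in endothelium (−5.17, edgeR adjusted p = 0.0480). It was kept by the filter on low counts through its cluster libraries.

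Of 19 stress, p53 and Foxo regulators tested out of 20, 2 rose and 1 fell (16.6% of all genes called), with a median of −0.38. Dynll1, a light chain known to hold Bim on the cytoskeleton, was 364 to 569 CPM in clusters and 736 to 923 CPM in endothelium (log2 fold change 0.93, edgeR adjusted p = 0.0103). Foxo1, a transcription factor that Akt keeps out of the nucleus, was 21.3 to 54.4 and 74.0 to 168 CPM (1.59, edgeR adjusted p = 0.0389). Bag1, a co-chaperone that binds Bcl-2, was 135 to 270 CPM in clusters and 61.3 to 101 CPM in endothelium (−1.30, edgeR adjusted p = 0.0266). These 3 were named because they passed this test, so the lack of overlap of their ranges between the cell types adds no separate support. How many of all genes show no overlap was not counted.

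Within the WT, where 8.24% of all genes were called, edgeR called Bik, Bcl2l14, Fas, Dynll1 and also Mdm2 from the 4 lists. Mdm2, the ubiquitin ligase that degrades p53, was at 93.6 and 121 CPM in clusters and 29.4 and 45.3 CPM in endothelium (log2 fold change −1.52, edgeR adjusted p = 0.0607). Within Sl/Sl, where 2.83% of all genes were called, no gene of the 4 lists was, the smallest edgeR adjusted p being 0.142, for Bcl2a1b. The same libraries enter both the averaged and the within-genotype comparisons, so these values are not independent of each other.

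No gene of the 4 lists passed in Sl/Sl against WT in either cell type by edgeR (all adjusted p = 1). In clusters the median log2 fold changes were 0.38 for the other Bcl2 family genes, −0.13 for the caspase list, −0.43 for the death receptor genes and 0.00 for the stress regulators, beside 0.03 over all genes. In endothelium, leaving out genes at 0 there or setting them to their bound, they were −0.18, 0.22, −0.54 and 0.00, beside 0.00 over all genes. In endothelium the smallest p of all 4 lists was that of Tnfrsf21, a death receptor, at 30.9 and 29 CPM in the WT and 4.73 and 5.24 CPM in Sl/Sl (log2 fold change −2.59, 95% interval −4.08 to −1.09). The replicates of Tnfrsf21 lay close together and the genotypes did not overlap, which for 2 against 2 libraries corresponds to p = 0.333 in an exact permutation test.

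By likeness of pattern over the 8 libraries (Pearson's r of log2 CPM, given as a description, since libraries of the same 4 groups make up the points), Bid was closest to Metap2 (r = 0.991), Ap1g2 (r = 0.985) and H2-DMa (r = 0.983). Mcl1 was closest to Spryd3 (r = 0.971), Phf3 (r = 0.959) and Tgm4 (r = 0.957). Bcl2 was closest to Tiam2 (r = 0.954), Golm1 (r = 0.950) and Anapc16 (r = 0.944), and Bcl2a1d to Epcam (r = 0.978), Zbtb37 (r = 0.977) and Tfeb (r = 0.973). Among the other members, the first gene was Rrp15 for Bax (r = 0.976), Snx6 for Bad (r = 0.979), Spats2 for Bbc3 (r = 0.965), Pde4a for Bcl2l1 (r = 0.955) and Zfp282 for Bak1 (r = 0.944). No member of the family appeared among the 3 genes closest to another.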

How the data were processed

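RNA-seq data were analysed from 8 libraries of 100 sorted cells, 2 in each of 4 groups, grouped by the sample titles. The authors made SMARTSEQ2 libraries, aligned reads to mm9 with STAR 2.4.2a and counted them on genes with featureCounts of Subread 1.4.5, and they named DESeq2 1.12.4 for tests. The authors deposited whole-number counts for each gene, not normalized, beside its exon length. The annotation, the strand setting and the handling of reads with several matches are not given in the sources used here.

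Counts were tested in R 4.3.3 with edgeR 4.0.16 (limma 3.58.1). After TMM scaling and filterByExpr over the 4 groups, all 8 libraries entered 1 quasi-likelihood fit without a block, from which 6 comparisons were drawn. P-values were adjusted by Benjamini-Hochberg over the 13908 genes tested, with a threshold of 0.1. CPM used TMM-scaled totals of all genes, RPKM used plain totals, and log2 CPM for likeness used a prior count of 2. Standard errors are the log2 fold change over the root of F. A count of 0 allows up to 3 counts a library, and ratios of low counts carry 95% exact binomial intervals, both for counting error only. Totals of 8933236 to 13428214 counts and a common dispersion of 0.667 set the precision.

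Alternatives were DESeq2 1.42.0 on 8 or 4 libraries, RLE size factors, other filters on low counts, a threshold of 0.05, edgeR on 4 libraries, a replicate block, each library left out, TMM-scaled RPKM and, chosen after seeing the data, the summed Bcl2a1 copies. The scripts were tested on simulated data. Coding sequences came from GENCODE on NCBIM37.

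The members, the gene lists and the tests were chosen with earlier results of these data known. The named genes were all 10 members and, from each list, those past the threshold (at most 6) or otherwise at most the 2 with the smallest p per comparison, plus the 3 genes most like a member, Kitl and the sort markers. The values of 2 genes that this rule names are not reported here.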

Additional observations from a re-analysis of the deposited data

Results flagged for a closer look

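Among the 10 members and the list genes named for a genotype comparison or the interaction, which were those with the smallest p, there were 4 for which every Sl/Sl library lay on one side of both wild type libraries in clusters and on the opposite side in endothelium, and none of the differences passed edgeR's quasi-likelihood test of the interaction after adjustment (adjusted p = 0.902 for each). Counted without that choice, the pattern held for 1 of the 10 members (Mcl1) and 4 of the 60 tested genes of the lists (Casp8, Cdkn1a, Fas and Mdm2), beside 4.92% of the 13908 genes tested. Mcl1 was lower in Sl/Sl clusters and higher in Sl/Sl endothelium, a difference between the log2 changes of −1.20. Mdm2, the ubiquitin ligase of p53, was at 121 and 93.6 CPM in wild type and 77.2 and 72.8 CPM in Sl/Sl clusters, and at 45.3 and 29.4 CPM in wild type and 86.6 and 67.1 CPM in Sl/Sl endothelium, a difference of −1.55. Cdkn1a, the p53 target p21, was at 37.7 and 59.4 CPM in wild type and 13.8 and 33.2 CPM in Sl/Sl clusters, and at 8.34 and 0.909 CPM in wild type and 23.5 and 47.0 CPM in Sl/Sl endothelium, a difference of −3.96. Fas moved the other way, from 44.3 and 28.4 CPM to 52.1 and 56.5 CPM in clusters and from 125 and 98.8 CPM to 71.7 and 79.6 CPM in endothelium, a difference of 1.15. The summed early response genes separated in the same directions as Mcl1, Mdm2 and Cdkn1a, and their part was not tested.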

How the results depend on the processing

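The count of members called changed with these settings. For both genotypes averaged, 2 became 3 with DESeq2 on 8 libraries, which added Bcl2, and 1 with at least 10 counts in every library (which drops Bcl2a1d), at an adjusted p of 0.05, and with the replicate block. For the wild type, 1 became 0 with edgeR on 4 libraries. For Sl/Sl, 1 became 2 with DESeq2 on 4 libraries and 0 at an adjusted p of 0.05. With each library left out in turn, the count ran from 1 to 3 for both genotypes averaged, 0 to 1 for the wild type and 0 to 1 for Sl/Sl, and stayed at 0 in both genotype comparisons and the interaction. The loss of calls with 1 library fewer goes with fewer samples; other causes were not tested.

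The study sorted cells in separate experiments, and no label says that a replicate number marks a shared sort. Between groups the deviations of same-numbered libraries correlated at −0.11 to 0.16 across genes, which does not settle whether they shared a sort. The numbers were not used to pair samples in the main fit. With the replicate block, Bcl2a1d between cell types was lost (edgeR adjusted p = 0.126), and Bak1 between cell types turned to 0.019 and Bcl2 between genotypes in endothelium to 0.054 on the log2 scale, neither called.

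Members whose uncalled log2 fold change changed sign with 1 library left out had these ranges. Endothelium over clusters ran from −0.34 to 0.45 for Bak1 and −1.18 to 3.10 for Bbc3 with both genotypes averaged. In the wild type it ran from −0.91 to 0.63 for Bak1, −0.36 to 0.13 for Bax, −4.01 to 4.57 for Bbc3, −0.54 to 0.45 for Bcl2l1, −0.95 to 1.65 for Bcl2l11 and −0.59 to 0.080 for Mcl1. In Sl/Sl it ran from −0.044 to 0.53 for Bad and −0.21 to 0.58 for Bak1. Sl/Sl over wild type in clusters ran from −1.37 to 0.93 for Bcl2, −0.34 to 3.90 for Bcl2a1d, −0.52 to 0.40 for Bcl2l1, −0.79 to 0.62 for Bcl2l11 and −0.89 to 0.53 for Bid. In endothelium it ran from −0.43 to 0.17 for Bad, −0.53 to 0.085 for Bax, −0.94 to 8.0 for Bbc3, −0.62 to 0.65 for Bcl2, −0.51 to 2.53 for Bcl2l11 and −0.99 to 0.15 for Bid. Summing the copies turned Bcl2a1d between genotypes in clusters to −0.52. For Mcl1 the interaction kept its sign, from −1.48 to −0.84. Low counts limit Bbc3, Bak1 and Bcl2a1d.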
